A study of Mus musculus with 12 samples.

Results

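The genes described here mark thymocytes, the developing T cells of the thymus, and encode parts of the T cell receptor and of its signalling. They were given as a list of 35 symbols chosen by function, with earlier results of these data known. Of the 35, 33 had a probe set that names 1 gene, 1 probe set each, among 35556 probe sets on the array. Lck and Tcf7 were not analysed here. RNA came from 12 arrays of thymic epithelium/stroma taken on day 7 after birth from untreated pups of the 4 core genotypes (FCG) mouse. In this model on a C57BL/6J background, Sry, the gene that starts testis formation, is deleted from the Y chromosome (Y−) and supplied as a transgene on an autosome. XXF and XYF pups therefore had ovaries, and XXM and XYM pups had testes, with either sex chromosome complement. There were 3 XXF, 3 XYF, 4 XXM and 2 XYM arrays, so that 6 female arrays were set against 6 male arrays and 7 XX arrays against 5 XY arrays. The comparisons ask whether the genes differed by gonadal sex, by XX or XY complement, or by both together. The labels do not say whether each array came from a separate pup, so p-values measure only the spread between these arrays. Per the study's methods, thymocytes were removed from the tissue by repeated washing before RNA was made.

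A T cell precursor enters the thymus without either coreceptor, rearranges its receptor genes with the RAG recombinase, and tests a first receptor chain with the pre-T cell receptor alpha chain, Ptcra. It then carries both CD4 and CD8, rearranges the second chain, and is selected by thymic epithelium before it keeps a single coreceptor. The CD3 chains and CD247 carry the receptor's signal into the cell, and factors such as Gata3, Bcl11b, Lef1, Zbtb7b and Runx3 set the lineage.

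Several of the genes lie next to each other on their chromosome. Among protein-coding genes, Cd3g, Cd3d and Cd3e were neighbours on chromosome 9, Rag2 and Rag1 on chromosome 2, Cd8b1 and Cd8a on chromosome 6, and Cd5 and Cd6 on chromosome 19. The 250 bases before the start of transcription are printed for 5 genes: for Cd3g and Cd3d, neighbours read in opposite directions of which Cd3g alone had no overlap between arrays 9 to 12 and the rest, for Rag1 and Rag2, the pair of recombinase genes, and for Il2ra, which varied most between arrays. They come from RefSeq, build GRCm38.p6, and run 5′ to 3′ on the strand of the gene, at chr9:44980432-44980681 (minus strand, Cd3g), chr9:44981536-44981785 (plus strand, Cd3d), chr2:101649533-101649782 (minus strand, Rag1), chr2:101624462-101624711 (plus strand, Rag2) and chr2:11642542-11642791 (plus strand, Il2ra). Capitals mark the letters of motifs searched on both strands: CANNTG (called an E-box), the letters GATAA bound by factors such as Gata3, the letters TGTGGT bound by RUNX proteins, the letters CTTTGA bound by TCF/LEF proteins and the letters GGAAGT bound by ETS proteins.
Cd3g: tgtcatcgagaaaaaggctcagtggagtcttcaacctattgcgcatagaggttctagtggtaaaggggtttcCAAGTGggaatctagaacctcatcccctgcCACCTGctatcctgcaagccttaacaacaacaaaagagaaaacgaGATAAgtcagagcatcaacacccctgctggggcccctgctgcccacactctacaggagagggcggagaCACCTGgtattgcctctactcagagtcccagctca
Cd3d: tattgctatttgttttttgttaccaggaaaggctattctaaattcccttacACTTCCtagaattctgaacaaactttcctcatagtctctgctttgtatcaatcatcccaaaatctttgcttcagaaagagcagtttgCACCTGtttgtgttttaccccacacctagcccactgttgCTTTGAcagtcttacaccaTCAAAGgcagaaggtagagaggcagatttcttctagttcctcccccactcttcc
Rag1: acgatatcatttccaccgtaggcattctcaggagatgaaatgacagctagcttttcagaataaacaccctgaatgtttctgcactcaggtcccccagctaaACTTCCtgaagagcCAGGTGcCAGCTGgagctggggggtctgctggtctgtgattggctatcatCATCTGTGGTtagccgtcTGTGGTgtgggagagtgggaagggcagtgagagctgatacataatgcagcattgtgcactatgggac
Rag2: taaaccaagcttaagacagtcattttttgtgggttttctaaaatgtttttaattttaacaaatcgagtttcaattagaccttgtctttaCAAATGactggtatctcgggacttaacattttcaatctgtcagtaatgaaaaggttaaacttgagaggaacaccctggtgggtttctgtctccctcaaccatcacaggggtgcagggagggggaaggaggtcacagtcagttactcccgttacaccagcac
Il2ra: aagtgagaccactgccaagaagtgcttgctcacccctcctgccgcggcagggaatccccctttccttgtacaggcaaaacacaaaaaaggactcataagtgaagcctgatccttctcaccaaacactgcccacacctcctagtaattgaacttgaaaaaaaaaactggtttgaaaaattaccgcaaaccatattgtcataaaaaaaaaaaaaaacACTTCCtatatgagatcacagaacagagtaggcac

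The Cd3g window held 3 E-boxes and 1 GATA match, and the Cd3d window 1 E-box, 2 TCF/LEF matches and 1 ETS match. In the Rag1 window there were 3 E-boxes, 2 RUNX matches and 1 ETS match, and 1 E-box and 1 RUNX match overlapped. The Rag2 window held 1 E-box and the Il2ra window 1 ETS match. Windows were given for 26 of the 35 genes, 42 windows in all. An E-box stood in 73.8% of these 42 windows, against 66.2% of all 32851 windows of that length. The ETS letters stood in 35.7% against 19.7%, and the GATA, RUNX and TCF/LEF letters in 19.0%, 11.9% and 11.9% against 22.6%, 14.0% and 13.8%. By gene, 13 of the 26 had the ETS letters in a window. Some of the 42 windows belong to the same gene and are not independent. Their median share of G and C was 56.4%, against 52.4% over all windows, and the differences in share were not tested. A match describes the letters and is not a bound site.

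The labels held on the arrays: Xist, transcribed from the inactive X chromosome, had signals between 8505 and 9884 wherever the label was XX and between 40.0 and 79.9 wherever it was XY, and Sry gave 2524 to 2836 on male and 416 to 565 on female arrays. Array medians ran from 327.5 to 345.5. The first principal component over probe sets with a mean signal of 200 or more held 32.5% of the variance and set arrays 9 to 12 (8.18 to 28.3) apart from arrays 1 to 8 (−15.7 to −1.91). Over all probe sets it held 18.9%, and the same arrays overlapped, at 5.30 to 46.0 against −34.0 to 17.4. The numbers are those in the sample labels, which do not say what they stand for. Arrays 9 to 12 hold 1 array of each genotype, so every comparison was also made without them and with the 3 sets of 4 consecutive numbers as a block. Leaving them out left a single XYM array, number 1, so those estimates have no spread within XYM.

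Thymocyte genes gave signals above a background reference in tissue labelled as epithelium and stroma. All 33 genes had a mean signal above 312.3, the 95th percentile of 1023 probe sets for olfactory receptors, which served as a reference for signal without a transcript, and 32 of them did so on all 12 arrays. The exception was Foxp3, the factor of regulatory T cells, with a mean of 327 and a range of 288 to 364. That mean stood at percentile 48.7 of all probe sets. Most probe sets on the array therefore also lay above 312.3, and this count alone does not set the thymocyte genes apart. The means of the other genes stood between percentile 54.8 for Zbtb7b and 99.7 for Satb1, with Ptcra at 68.5, Cd3e at 98.9 and Cd8b1 at 99.4. At the 99th percentile of the olfactory receptors, 459.2, Zbtb7b with a mean of 393 also fell short, and 31 genes remained. Sry, which the female genotypes lack, read 416 to 565 on female arrays, so a probe set without its transcript can lie above this reference and above the means of Foxp3 and Zbtb7b. Markers of the labelled tissue were above 312.3 as well: 15 of 15 of cortical and 12 of 13 of medullary epithelium. In such bulk tissue, fewer thymocytes and less RNA per thymocyte cannot be told apart. Genes were not ranked against one another by signal, because probes differ in brightness, and the percentiles carry the same limit.

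From array to array the genes varied little. Their coefficient of variation over 12 arrays ran from 4.59% for Themis, which tunes receptor signals during selection, to 16.1% for Il2ra, the interleukin 2 receptor alpha chain (CD25) of early precursors. The median was 7.36%, against 8.23% over named probe sets with a mean signal of 200 or more and 10.3% over all probe sets. Zbtb7b (11.4%), Cd3g (10.2%) and Dntt (10.1%) followed Il2ra.

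**Figure D1:**
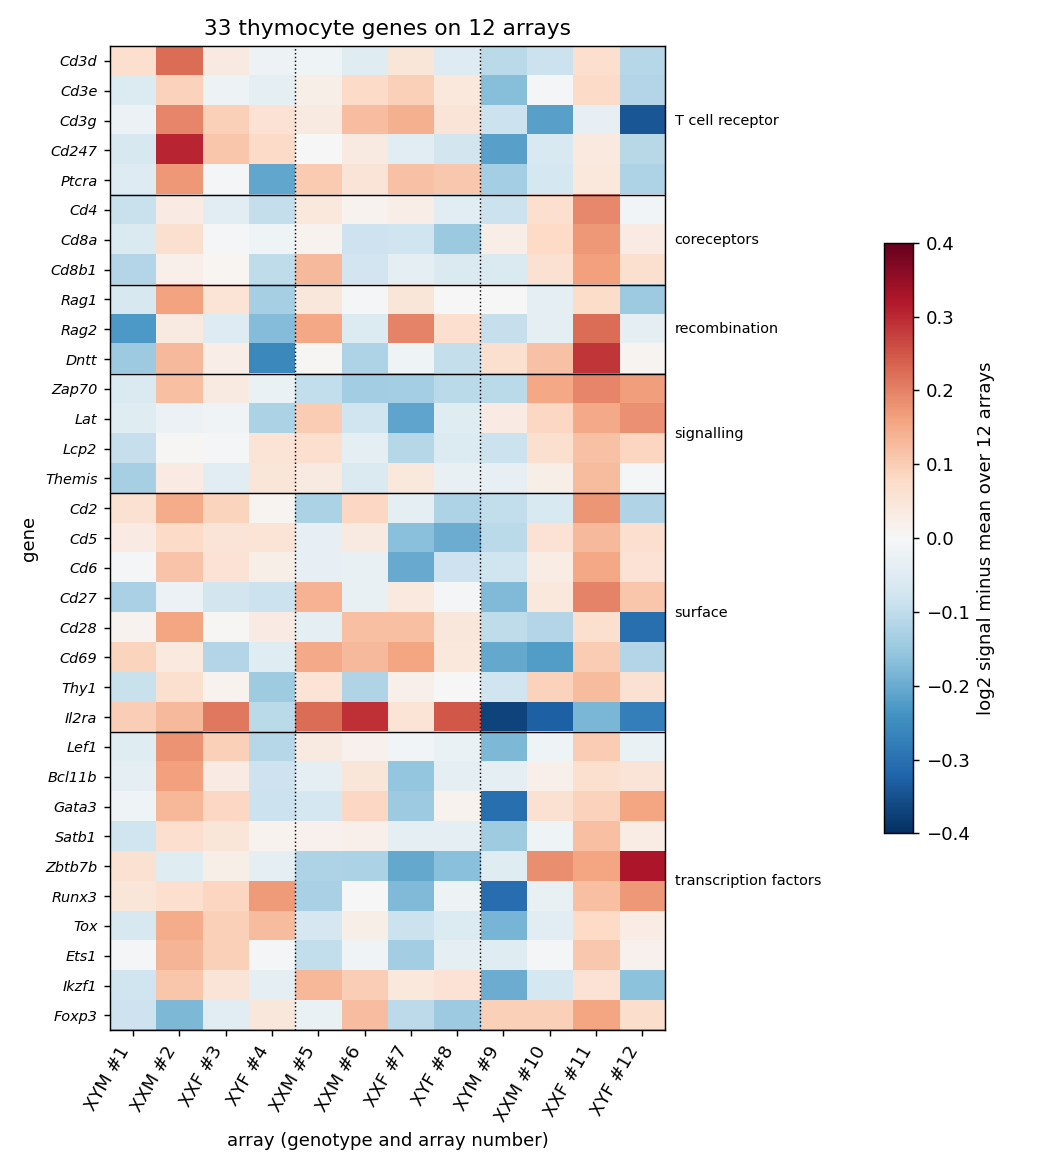
Each row is 1 of 33 thymocyte genes and each column 1 of 12 arrays, named by genotype and array number; colour gives the log2 signal minus that gene's mean over the 12 arrays, and dotted lines part arrays 1 to 4, 5 to 8 and 9 to 12. Array 11 (XXF) held the highest value of 15 genes, array 2 (XXM) of 10, and array 9 (XYM) the lowest value of 10.

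The mean of the 33 centred log2 signals gives each array a score. It was 0.11 on XXF array 11 and 0.09 on XXM array 2, and −0.11 on XYM array 9. Of the 33 genes, 2 were under their own mean on array 11, 4 on array 2 and 29 on array 9. The other 9 arrays scored between −0.04 and 0.03. XX arrays had a mean score of 0.03 ± 0.05 (SD, n = 7) and XY arrays −0.05 ± 0.04 (SD, n = 5), and these 2 sets overlapped.

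No thymocyte gene passed the threshold between XY and XX arrays, but 32 of the 33 had lower estimates in XY. With limma, 0 of 33 genes reached an adjusted p under 0.05, where 0.0366% of all probe sets did, and every adjusted p was 1.00. The median log2 difference of the 33 genes was −0.09, against 0.01 over all probe sets. Below 0 stood 47.4% of all probe sets and 53.0% of the 15795 that had 1 symbol and a mean signal of 200 or more. Differences ran from −0.18 for Rag2 to 0.04 for Zbtb7b, and the 95% confidence intervals of all 33 genes together spanned 0.73 to 1.20 as a ratio of XY to XX. At an unadjusted p under 0.05, limma gave 3 genes below 0 and 0 above, where 1.29% and 1.26% of all probe sets stood. The 33 genes were measured on the same arrays and are not independent of one another.

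The signalling chains of the receptor all had estimates below 0. Cd3e, a chain that every CD3 dimer contains, gave 3734 and 4046 on the XYM arrays 9 and 1 and 3871, 4094 and 4331 on the XYF arrays 12, 4 and 8, while the 7 XX arrays ran from 4146 over a median of 4429 to 4485. All but 1 of the XY arrays were under the lowest XX array. On the log2 scale Cd3e differed by −0.12 (SE 0.06) and had an unadjusted limma p of 0.0503 and an exact two-sided permutation p of 0.0114.

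Cd247, the zeta chain, gave 1298 and 1444 on the XYM arrays 9 and 1 and 1396, 1433 and 1592 on the XYF arrays 12, 8 and 4. Its XX arrays ran from 1447 over 1545 to 1863, and only XYF array 4 lay among them. It differed by −0.14 (log2, SE 0.08), with an exact permutation p of 0.0758.

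Cd3d and Cd3g, the delta and gamma chains that pair with Cd3e, overlapped widely. Cd3d gave 1150.3 and 1300.1 on XYM arrays and 1145, 1197 and 1224 on XYF arrays, against 1169.7 to 1448 with a median of 1272 on XX arrays. Cd3g gave 4127 and 4309.8 on XYM and 3451, 4534 and 4559 on XYF arrays, against 3768 to 5014 with a median of 4679 on XX arrays. Their log2 differences were −0.08 (SE 0.07) and −0.12 (SE 0.09), neither past an unadjusted p of 0.05 in limma. Without XYM array 9 the Cd3d difference was −0.03, and without XYF array 12 the Cd3g difference was −0.05. For Ptcra, XY arrays gave 543 and 577 (XYM) and 517, 548 and 643 (XYF), and XX arrays 569 to 674 with a median of 619. The difference of −0.14 (SE 0.07) had an unadjusted limma p of 0.0717 and an exact permutation p of 0.0417.

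Among the coreceptors, Cd4, which binds MHC class II, gave 3614 and 3625 on XYM arrays and 3601, 3731 and 3816 on XYF arrays. XX arrays ran from 3734 over 3933 to 4392, so that 4 of 5 XY arrays were under every XX array. Cd4 differed by −0.12 on the log2 scale (SE 0.06), with an unadjusted limma p of 0.0613 and an exact permutation p of 0.00758. Without XXF array 11, on which Cd4 had its highest signal, it was −0.08.

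Cd8a and Cd8b1 form the coreceptor for MHC class I. Cd8a gave 4957 and 5252 on XYM and 4657, 5096 and 5275 on XYF arrays, against 4874 to 5813 (median 5209) on XX arrays. Cd8b1 gave 5275 and 5497 on XYM and 5336, 5505 and 5991 on XYF arrays, against 5425 to 6421 (median 5801) on XX arrays. Both sets overlapped, with log2 differences of −0.05 (SE 0.07) and −0.10 (SE 0.06). For Cd8a, leaving out XXF array 11 took the difference to −0.02.

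The recombination genes had a median log2 difference of −0.14 over 3 genes. Rag2 gave 1381 and 1516 on XYM arrays and 1435, 1576 and 1696 on XYF arrays, against 1557 to 1887 with a median of 1660.2 on XX arrays. The 3 lowest arrays were XY, and the other 2 XY arrays lay among the XX arrays. Rag2 differed by −0.18 (log2, SE 0.07) at an unadjusted limma p of 0.0364 and an exact permutation p of 0.0543.

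Rag1, whose product cuts DNA together with that of Rag2, gave 5057 and 5288 on XYM arrays and 4785, 4826 and 5299.8 on XYF arrays, against 5150.2 to 5908 (median 5470.1) on XX arrays. Each XY array was under the XX median. The log2 difference was −0.11 (SE 0.06) with an exact permutation p of 0.0101, while the unadjusted limma p was 0.0785. Dntt, the terminal transferase that adds bases at the joints, gave 1746 and 2016 on XYM and 1614, 1807 and 1945 on XYF arrays, against 1772 to 2353 (median 1968) on XX arrays. Its difference was −0.14 (SE 0.08), or −0.09 without XYM array 1, and the sets overlapped.

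Among the lineage factors, Lef1, an HMG box factor of the TCF/LEF family, was the 1 gene of 33 with no overlap. Its XYM arrays gave 2635 and 2888 and its XYF arrays 2757, 2929.7 and 2931, all under the 7 XX arrays at 2948 to 3384 with a median of 3062. The gap between the highest XY and the lowest XX array was narrow, and 0.0534% of all probe sets showed no overlap in that direction. The log2 difference was −0.14 (SE 0.06) with an unadjusted limma p of 0.0338, an adjusted p of 1.00 and an exact permutation p of 0.00379.

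Ikzf1, the Ikaros zinc finger factor of lymphoid cells, gave 2340.5 and 2541 on XYM arrays and 2396, 2609 and 2792 on XYF arrays, against 2553 to 2944 (median 2792) on XX arrays. Its 3 lowest arrays were XY. The log2 difference was −0.15 (SE 0.06), with an unadjusted limma p of 0.0333 and an exact permutation p of 0.0202. Zbtb7b (ThPOK), which directs cells to the CD4 lineage, had the single estimate above 0, 0.04 (SE 0.10), with 378 and 407 on XYM, 348, 380.5 and 488 on XYF and 339 to 445 on XX arrays. Foxp3, the 1 gene of the list on the X chromosome, had an estimate of −0.00 with a 95% confidence interval of −0.18 to 0.17, and 295 to 348 on XY arrays lay within 288 to 364 on XX arrays.

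In all, 6 genes had an exact permutation p under 0.05, unadjusted, each of them lower in XY: Cd3e, Cd4, Ptcra, Rag1, Lef1 and Ikzf1. The same held in that direction for 1.31% of all probe sets. These permutations ran over all 12 arrays and held neither the array sets nor gonadal sex fixed. They tested the difference of plain means, which for Rag2 was −0.16 where the limma estimate was −0.18. By role, all 5 receptor genes (median −0.12), 3 of 3 coreceptors (−0.10), 3 of 3 recombination genes, 4 of 4 signalling adaptors and kinases (−0.05), 8 of 8 surface molecules (−0.09) and 9 of 10 lineage factors (−0.06) were below 0. By stage, the median was −0.14 over 2 double negative genes, −0.11 over 6 genes of recombination and the double positive stage, and −0.05 over 9 genes of selection and single positive cells. These medians depended on the processing: with quantile normalization anew they were −0.04 for coreceptors, −0.02 for signalling (3 of 4 below 0), −0.01 for lineage factors, −0.07 for recombination and the double positive stage and −0.03 for selection and single positive cells. Without arrays 9 to 12 they were −0.02 for signalling, −0.04 for surface molecules (7 of 8 below 0), −0.03 for lineage factors (8 of 10) and −0.02 for selection and single positive cells (6 of 9). The 2 double negative genes, Ptcra and Il2ra, had a median of −0.12 with quantile normalization anew and −0.11 without arrays 9 to 12. With array set as a block the medians were −0.09 for double negative genes, −0.12 for recombination and the double positive stage and −0.08 for selection and single positive cells. Differences between roles or stages were not tested.

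**Figure D2:**
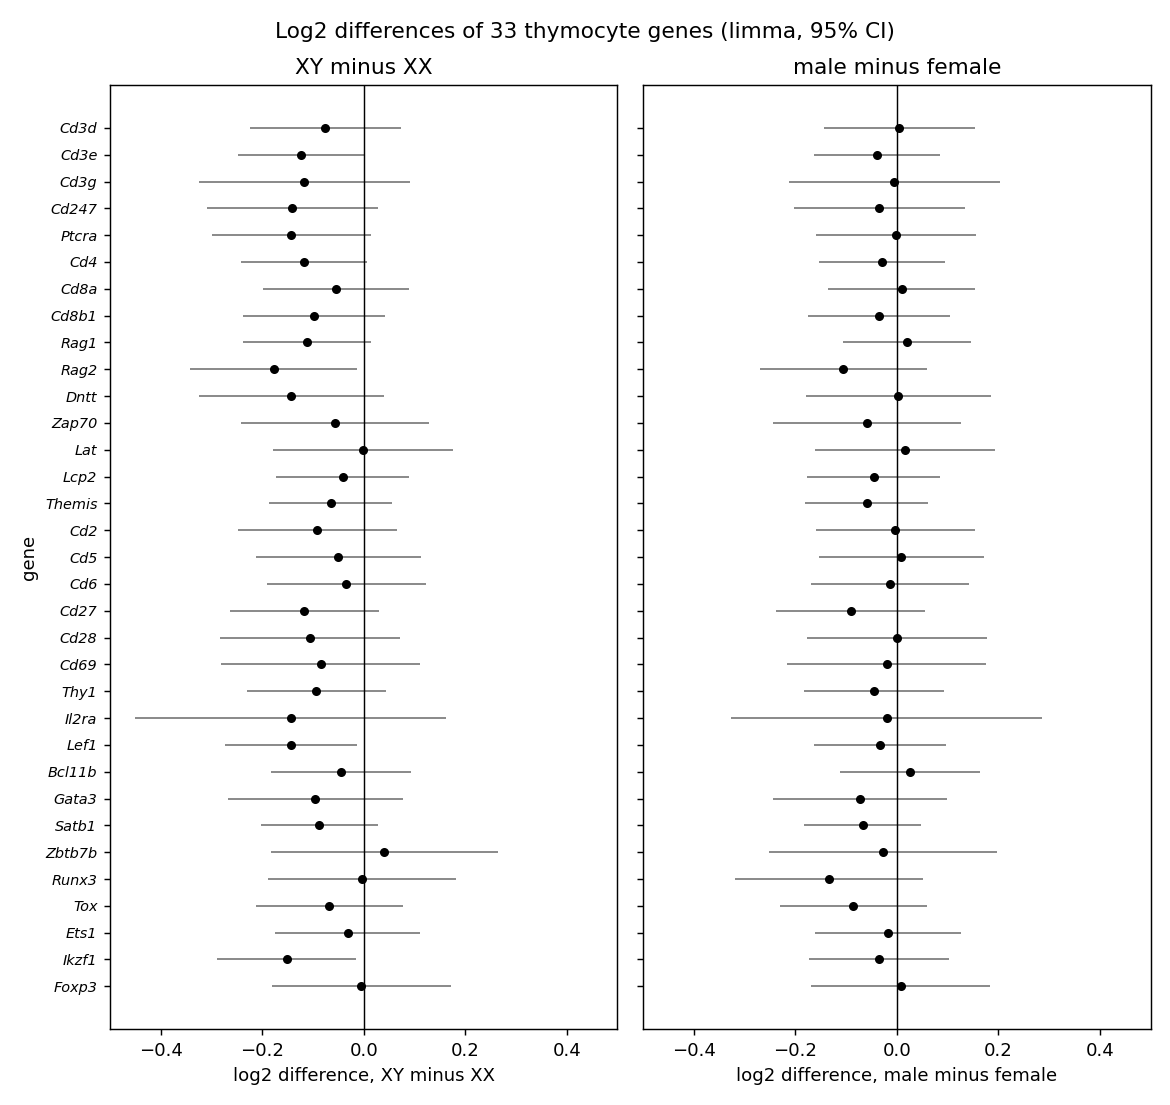
Points give limma's log2 difference of each of 33 genes and lines its 95% confidence interval, on the left XY minus XX and on the right male minus female. On the left 32 of 33 points lie below 0 and all but 3 intervals (Rag2, Lef1 and Ikzf1) include 0; on the right every interval includes 0.

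The XX and XY arrays could be compared in females and in males, with no array in common. The XYF minus XXF differences were below 0 for 27 of 33 genes (median −0.07) and the XYM minus XXM differences for 31 of 33 (median −0.09), and 26 genes were below 0 in both. In females alone, 5 genes were above 0. Over all probe sets, 48.3% and 48.7% were below 0.

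Within arrays 1 to 4 the XY mean was lower for 29 of 33 genes (median −0.09). It was lower for 23 (−0.03) within arrays 5 to 8, with a single XY array, and for all 33 (−0.11) within arrays 9 to 12. Of all probe sets, 46.7%, 46.1% and 52.1% were lower in these 3 sets. With array set as a block, 0 genes passed the adjusted threshold in limma (lowest adjusted p 0.718; 0.0394% of all probe sets passed), and 10 had an unadjusted p under 0.05, all below 0, where 2.76% of all probe sets did. These were Cd3e, Cd247, Cd4, Rag2, Dntt, Zap70, Lef1, Satb1, Tox and Ikzf1, so that Rag1 and Ptcra, with an exact permutation p under 0.05, were not among them. Cd247 then had the lowest p of the 33, with a log2 difference of −0.16 (SE 0.05). Without arrays 9 to 12, limma gave 0 of 33 at an unadjusted p under 0.05, where 2.35% of all probe sets were, and it left 30 genes below 0 with a median of −0.05, against 49.1% of all probe sets below 0. With quantile normalization anew, 31 genes were below 0 with a median of −0.06.

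**Figure D3:**
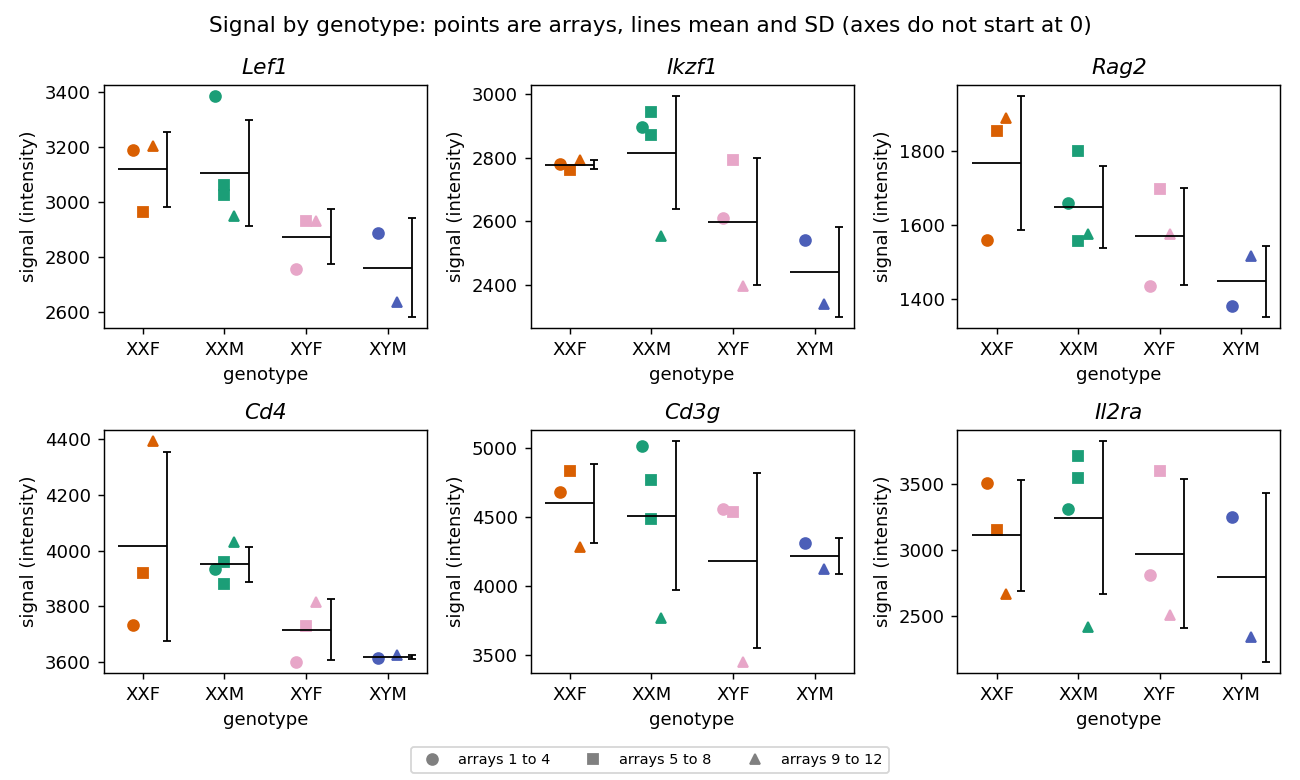
Points are single arrays by genotype, horizontal lines the mean and vertical lines the SD of the signal (intensity, linear scale, axes not from 0) of 6 genes, with marker shapes for arrays 1 to 4, 5 to 8 and 9 to 12. For Lef1 all XY arrays lie at or under 2931 and all XX arrays at or above 2948, whereas Il2ra splits by array number, at most 2671 on arrays 9 to 12 but at least 2814 elsewhere.

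No thymocyte gene passed the threshold by gonadal sex, and most estimates lay close to 0. With limma, 0 of 33 genes passed the adjusted threshold (0.00281% of all probe sets did, and the lowest adjusted p was 0.985) and 0 had an unadjusted p under 0.05, where 3.03% of all probe sets did. The median log2 difference, male minus female, was −0.03, and the 95% confidence intervals of all genes spanned 0.80 to 1.22 as a ratio of males to females. Estimates below 0 were found for 25 of 33 genes, against 48.7% of all probe sets and 58.7% of the bright named ones. This direction did not hold: it was 15 of 33 after a renewed quantile normalization. Without arrays 9 to 12, which left a single XYM array, it was 11 of 33, where 45.1% of all probe sets were below 0.

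Runx3, which directs cells to the CD8 lineage, had the lowest p by sex. The 6 male arrays gave 482 to 624 with a median of 589.9 and the 6 female arrays 527 to 671 with a median of 639. The ranges overlapped, and the log2 difference was −0.13 (SE 0.08) with an unadjusted limma p of 0.143 and an exact permutation p of 0.184. It was −0.22 without XYM array 1 and −0.04 without XYM array 9. With array set as a block, Runx3 (−0.15, SE 0.06) and Tox, a factor of the CD4 lineage (−0.10, SE 0.04), had an unadjusted limma p under 0.05, 2 of 33 genes where 11.5% of all probe sets did. Rag2 (−0.11, SE 0.07) and Cd27, a costimulatory receptor (−0.09, SE 0.07, or −0.05 without XXF array 11), followed below 0. Above 0, Bcl11b, which commits precursors to the T lineage, Rag1 and the adaptor Lat reached at most 0.03. Within arrays 1 to 4, 5 to 8 and 9 to 12, 7, 10 and 30 of 33 genes were lower in males, with medians of 0.03, 0.05 and −0.11. Of all probe sets, 48.7%, 43.6% and 53.8% were lower, with medians of 0.003, 0.019 and −0.016. No gene had male and female arrays without overlap, which 0.0394% of all probe sets showed with males lower and 0.0337% with males higher.

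The interaction asks whether the XY minus XX difference was the same in males and females. No gene passed, adjusted or unadjusted, in limma (all probe sets: 0.0% adjusted and 1.54% unadjusted). Gata3, needed for T lineage entry and the CD4 lineage, had the lowest p, with an interaction of −0.23 (SE 0.16) that was far from the threshold in limma (adjusted p = 1.00). Its means were 1253 ± 114 in XXF (SD, n = 3), 1269 ± 109 in XYF (n = 3), 1288 ± 75.3 in XXM (n = 4) and 1117 ± 155 in XYM (n = 2). Without XYM array 9, at 1008, the interaction was −0.09, and without XYM array 1 it was −0.37. Runx3 (−0.20, SE 0.17) and Lcp2, an adaptor downstream of Zap70 (−0.15, SE 0.12), were also below 0, and Dntt (0.14, SE 0.17), Cd2 (0.12, SE 0.14) and Rag1 (0.08, SE 0.12) above. With array set as a block the lowest p was that of Tox (−0.20, SE 0.09), the 1 gene of 33 with an unadjusted limma p under 0.05, where 6.4% of all probe sets were. Over the 4 genotypes, limma's F test called 0 of 33 genes (0.0281% of all probe sets adjusted, 1.99% unadjusted), with a lowest unadjusted p of 0.141 for Rag2. With the block it gave 0 adjusted and 2 unadjusted, against 7.61% of all probe sets unadjusted.

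Between arrays 9 to 12 and arrays 1 to 8, thymocyte genes parted about as often as probe sets at large. Il2ra gave 2343, 2416, 2671 and 2508 on arrays 9 to 12 and 2814 to 3710.4 with a mean of 3359.6 on arrays 1 to 8, a log2 difference of −0.43. Cd3g gave 4127, 3768, 4279 and 3451 on arrays 9 to 12 and 4309.8 to 5014 on arrays 1 to 8, a difference of −0.25, while its neighbours Cd3d (−0.09) and Cd3e (−0.08) overlapped between the sets. Il2ra and Cd3g were the 2 genes of 33 without overlap, both lower on arrays 9 to 12. The share of all probe sets that did so was 5.82%, so this count is no result about the thymocyte genes. None of the 33 was higher without overlap, against 4.36% of all probe sets. Zbtb7b (0.23), Dntt (0.18), Lat (0.17) and Foxp3 (0.16) had the differences above 0 of the greatest size.

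**Figure D4:**
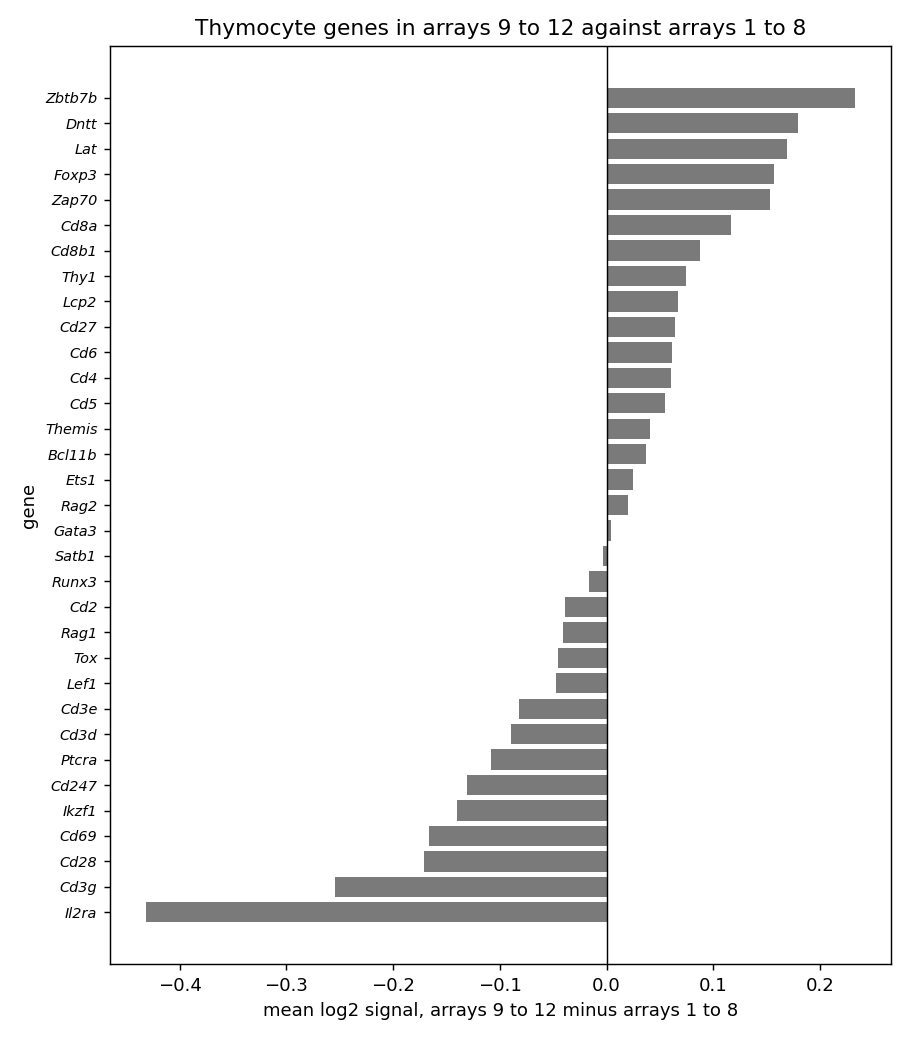
Bars give the mean log2 signal on arrays 9 to 12 minus that on arrays 1 to 8 for each of 33 genes. Il2ra at −0.43 and Cd3g at −0.25 lie at the lower end and Zbtb7b at 0.23 at the upper end.

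Other genes of T cell receptor signalling, 61 of 65 with a probe set, were spread as follows in XY minus XX. Below 0 stood 45 of 61, with a median of −0.05, and limma called 0 adjusted and, unadjusted, 7 below and 1 above 0. Over all probe sets these shares were 47.4% below 0 and, unadjusted, 1.29% below and 1.26% above. Sit1, an adaptor that restrains receptor signals, had −0.19 (SE 0.07), and Tnfrsf9, the costimulatory receptor 4-1BB, 0.18 (SE 0.05). By sex, 46 of 61 were below 0 with a median of −0.02, where 48.7% of all and 58.7% of the bright named probe sets were. The direction turned without arrays 9 to 12, with 21 of 61 below 0 and a median of 0.02.

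Several lists of markers of other cells had most of their XY minus XX estimates on one side of 0, and their part in the thymocyte result was not tested. Cortical epithelium had 13 of 15 genes above 0 in XY (median 0.06), medullary epithelium 12 of 13 (0.09, Aire 0.27), endothelium 10 of 10 (0.14, Plvap 0.27) and macrophages and dendritic cells 10 of 12 (0.06). Mesenchyme had 8 of 10 below 0 (−0.14, Dcn −0.40), and 13 of 14 proliferation genes were below 0 (−0.12, Ccnb2 −0.23). Natural killer markers were split, 4 below and 4 above 0, and B cell markers, 3 below and 4 above. No gene of these lists passed the adjusted threshold in limma. Without arrays 9 to 12, which left a single XYM array, 4 of 13 medullary and 2 of 15 cortical markers were below 0. Endothelium then had 0 of 10 below 0, macrophages and dendritic cells 0 of 12, mesenchyme 7 of 10 and proliferation 13 of 14.

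The summed signal of the 33 thymocyte genes lay between 89761 and 98058 on XX arrays and between 85112 and 89936 on XY arrays. That of the 15 cortical markers was 44565 to 57218 on XX and 48471 to 55770.3 on XY arrays, and that of the 13 medullary markers 10169 to 12260.5 and 10963 to 12652. The 10 endothelial markers summed to 9599 to 12063 on XX and 10789.7 to 14279 on XY arrays, and the 10 mesenchymal markers to 15121 to 22134 and 14963 to 20040.1. Macrophage and dendritic cell markers summed to 9205 to 11986 on XX and 10178 to 12460.2 on XY arrays. The proliferation genes summed to 28405 to 35109.5 on XX and 27839 to 33155 on XY arrays. Each of these ranges overlapped between XX and XY, for the thymocyte genes only from 89761 to 89936. The median thymocyte sum was 92603 on XX and 87971 on XY arrays. No marker of these lists was at 0, and the lowest single signal was 216 among medullary and 437 among endothelial markers.

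**Figure D5:**
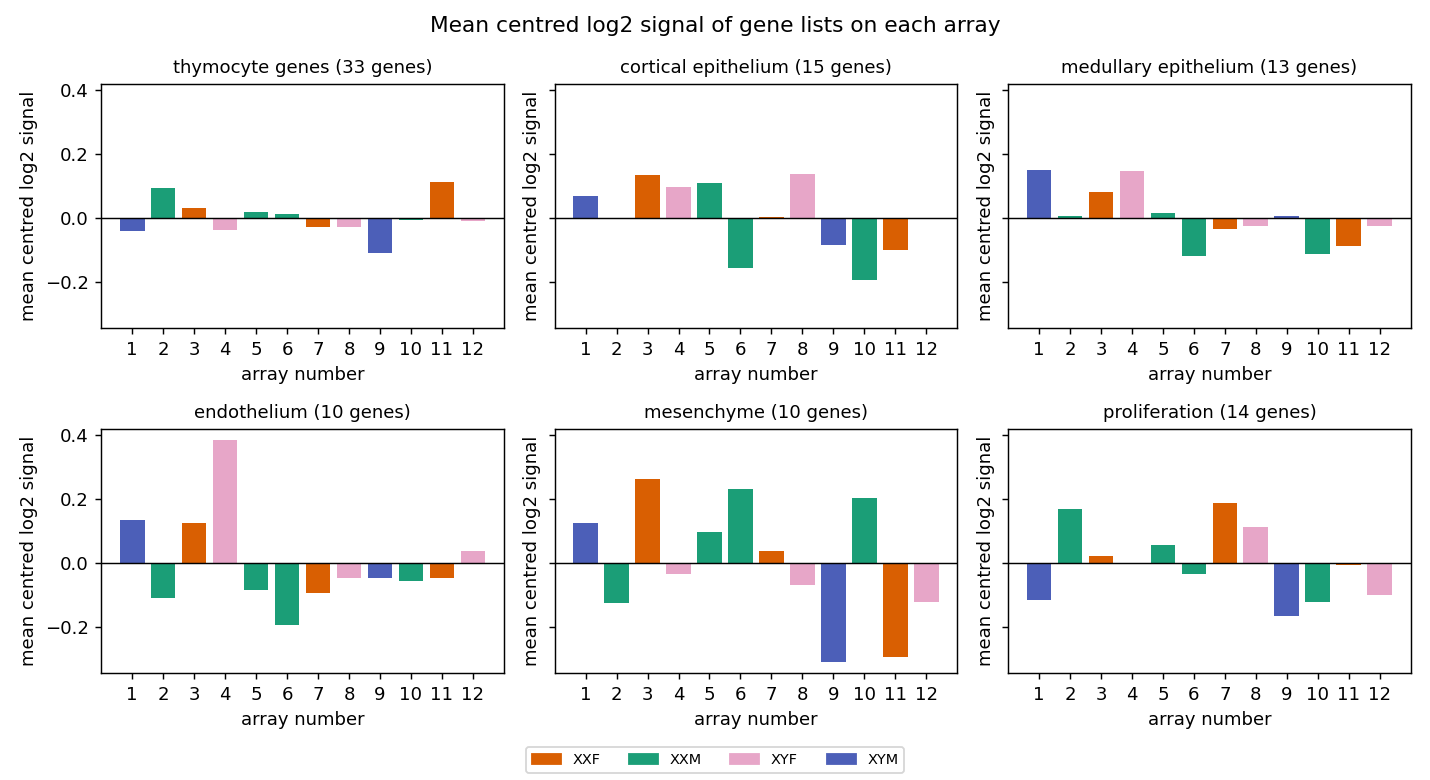
Bars give, for each array number and coloured by genotype, the mean over a list of the log2 signal centred on each gene's mean, for thymocyte genes and 5 other lists. The thymocyte score runs from −0.11 on array 9 to 0.11 on array 11, a narrower span than that of mesenchyme or endothelium. It averages 33 genes and those lists 10 each, so the spans are not like for like.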

How the data were processed

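The authors hybridized RNA to 12 Affymetrix mouse arrays and summarised and normalized the probes into the deposited table, which holds linear intensity values of 35556 probe sets with 1 column for each array. For this step Expression Console 1.1 with PLIER is named in the submitters' processing notes, but RMA with quantile normalization in the study's methods, and settings are not given in the sources used here. The platform annotation named the genes: 21789 probe sets had 1 symbol, 1621 several and 12146 none, and only those with 1 symbol were named. The number of arrays limits the precision.

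Log2 signals were fitted with limma 3.58.1 (lmFit, eBayes) in R 4.3.3 with 1 mean for each of the 4 genotypes and a common spread. Male minus female, XY minus XX and the interaction were estimated, and p-values were adjusted over all probe sets by Benjamini-Hochberg, with a threshold of 0.05. Exact permutation tests were two-sided, over 924 groupings by sex and 792 by complement, on plain means and unadjusted. Their smallest possible p-values were 0.00216 and 0.00126. Scripts ran in Python 3.11.15 and were tested on simulated data.

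The genes and lists were chosen with earlier results of these data known. Values on every array were given for the receptor chains, coreceptors, recombination genes, Ptcra and Foxp3; besides these, the 3 genes with the lowest p in each direction of each contrast, and up to 2 of each other list, were named. Il2ra, Themis, Tox, Satb1, Cd28, Zap70 and Ets1 were named after their values were seen, as were the other genes named by array set. Alternative settings were quantile normalization anew, an offset of 16, a signal limit of 200, probe sets with 1 symbol, the mean over probe sets, array set as a block, leaving out arrays 9 to 12 or any 1 array, moderation with a trend, array weights, and the two-way ANOVA of the methods.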

Additional observations from a re-analysis of the deposited data

Results flagged for a closer look

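For each of the 33 genes and for their mean score, the female, male, XX and XY arrays were each searched for a single array far from the others, 136 groups in all. In 3 of them 1 array stood apart, and chance alone marks about 1 group in 20. Cd28, a costimulatory receptor, was lowest on XYF array 12 among the female arrays, at 1292.82, where the nearest female array had 1600.11. Zap70, the kinase recruited to the receptor, was highest on the same array among the XY arrays, at 1169.01 against 1022.57 on the nearest. Ets1, a lymphoid transcription factor, was highest on XXM array 2 among the male arrays, at 2814.02 against 2552.23 on the nearest.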

How the results depend on the processing

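The 0 calls of each contrast at an adjusted p under 0.05 held under all 22 alternatives run. For XY minus XX, between 28 and 33 genes stayed below 0 when any 1 array was left out, with a median of −0.10 to −0.07, and 0 to 5 genes had an unadjusted limma p under 0.05; without XXM array 2, XYF array 4 or XXF array 11 there were 0. The two-way ANOVA of the methods, which did not moderate the spread, gave 7 such genes. For that test and for fits without 1 array, the share of all probe sets is not given here. These counts alone are therefore no result about the thymocyte genes. By sex the median turned to 0.0019 under a renewed quantile normalization and to 0.0082 without arrays 9 to 12, with 15 and 11 genes below 0; leaving out single arrays gave 19 to 27 genes and a median of −0.04 to −0.01. For the interaction, leaving out single arrays gave 19 to 27 genes below 0 and a median of −0.08 to −0.01. Of 594 values of single genes recomputed, 14 changed sign. Zbtb7b in XY minus XX was −0.0233 with the block and ran from −0.0300 to 0.0924 when single arrays were left out, and Foxp3 from −0.0495 to 0.0398. By sex, Runx3 was 0.0012 without arrays 9 to 12, and without single arrays Bcl11b ran from −0.0074 to 0.047 and Lat from −0.0305 to 0.0611. The Rag1 interaction was −0.0148 without arrays 9 to 12. The causes were not tested. Single genes rested on XYM arrays 1 and 9: without array 1 the Runx3 interaction was −0.38 and without array 9 −0.03. No paired analysis was made, because the labels name no pairs and do not say what the array numbers stand for. Deposited signals include background, and Foxp3 and Zbtb7b lay closest to the olfactory receptors. Every contrast over all 12 arrays rests on 2 XYM arrays, and on a single XYM array without arrays 9 to 12 or without either XYM array.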

Other observations

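By sex, some lists of other cells had estimates mostly on one side of 0, where 48.7% of all and 58.7% of the bright named probe sets were below. Male minus female, all 15 markers of cortical epithelium were below 0, with a median of −0.08, among them Prss16 (−0.10, SE 0.06) and Psmb11 (−0.10, SE 0.06), both proteases of cortical antigen presentation. Endothelium had 9 of 10 markers below 0 (median −0.10) and proliferation 13 of 14 (−0.10), while 8 of 10 mesenchymal (0.05) and 6 of 7 B cell markers (0.12) were above 0. Medullary epithelium was split, 7 below and 6 above 0, as were macrophage and dendritic cell markers, 5 and 7, and natural killer markers, 4 and 4. None passed the adjusted threshold in limma. Without arrays 9 to 12, which left a single XYM array, 5 of 10 mesenchymal markers were below 0. Cortical epithelium then had 15 of 15 below 0, endothelium 9 of 10, proliferation 13 of 14 and B cell markers 0 of 7. Few markers of some other cells were above the reference signal: 0 of 6 erythroid, 2 of 8 natural killer, 3 of 7 B cell and 3 of 7 fat markers had a mean signal above the 95th percentile of the olfactory receptors.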
